A study of Mus musculus with 4 samples.

Results

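Genes of glycolysis, glucose uptake and the response to low oxygen were followed in colon epithelial RNA of Ezh2 knockout and wild-type mice. The 48 genes were chosen by name, with earlier results of these data known. Of them, 33 encode sugar transporters and enzymes of glycolysis, pyruvate handling and the pentose phosphate pathway. The other 15 encode hypoxia-inducible factor (HIF) subunits, oxygen sensors and HIF targets outside these pathways. All 48 were listed in every library, out of 18872 genes listed in any, and all passed the filter on low counts that left 13608 genes for testing. Each symbol was matched to an Entrez identifier in the RefSeq gene table.

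The knockout group, labelled EZH2-IEC-/-, and the wild-type group each held 2 RNA-seq libraries of primary colon epithelial cells, and every mouse had received 2% DSS (dextran sulfate sodium, a chemical that damages the colonic mucosa) for 3 days. Ezh2 encodes the methyltransferase of Polycomb repressive complex PRC2, which deposits a repressive mark on histone H3. The design asks how its loss in the intestinal epithelium changes gene expression during experimental colitis. The labels used here give no Cre driver, age or sex, and leave unsaid whether each library is a mouse of its own. The p-values therefore reflect only how far these libraries vary, and that variation may be technical.

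Glycolysis splits glucose into pyruvate in the cytosol, and lactate dehydrogenase can then turn pyruvate into lactate while restoring NAD+. Glucose-6-phosphate can instead enter the pentose phosphate pathway, which supplies NADPH and ribose. The subunits HIF-1α and HIF-2α are hydroxylated by oxygen-dependent prolyl hydroxylases and degraded when oxygen is plentiful. When oxygen falls they pair with ARNT and raise many glycolysis genes together with genes for vessel growth, mitophagy and pH control. The surface of the colon epithelium faces a nearly anoxic lumen, and HIF is known to support its barrier. Colonocytes are also known for burning butyrate in mitochondria as their main fuel.

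Library depth, as the sum of estimated counts, was 5399949 and 5446998 for knockout and 5037367 and 5236519 for wild type. Ezh2 itself was counted at 86 and 83 in knockout and at 105 and 102 in wild type, a difference that did not pass (adjusted p = 0.217). Counts per gene cannot reveal the loss of single exons. The 12 fixed markers of colon epithelium summed to 13860 and 14420 FPKM in knockout and to 12890 and 13240 FPKM in wild type, and all 12 were listed in each library. Of these 12 markers, 8 were higher and 3 lower in knockout. FPKM is the deposited level per transcript length and library total. Markers of other cells were present and also moved with genotype. The 29 leukocyte markers tested had 21 higher and 3 lower in knockout, and the fibroblast and smooth muscle markers had 0 higher and 9 lower of 10. For all genes tested, the shares were 23.0% higher and 20.8% lower. In bulk RNA, more cells of a type and more RNA per cell cannot be told apart.

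Across the 48 genes, 28 rose and 9 fell in the knockout, and 11 did not pass the threshold, an adjusted p under 0.05 (edgeR's quasi-likelihood test, adjusted over all genes by Benjamini-Hochberg). Over all genes tested, 23.0% were called higher and 20.8% lower, 43.7% in all. Those shares stand beside the counts of each group of members and markers below. Of the pathway genes, 22 of 33 (66.7%) rose and 6 fell, with a median log2 fold change of 0.50, knockout minus wild type, beside -0.002 for all genes tested. Among the 15 oxygen sensing and HIF genes, 6 (40.0%) rose and 3 fell, with a median of 0.20, which was 0.32 without knockout replicate 1 and 0.086 without knockout replicate 2. Over the other alternatives that median ran as low as 0.02, on genes with a mean FPKM of at least 5, and was 0.043 on quantile normalized FPKM. Whether the 2 shares differ was not tested. Because the genes were chosen with earlier results of these data known, their excess over the shares of all genes is a description only. Called genes with a log2 change of at least 1 numbered 10 of the 48 upward and 4 of the 48 downward, against 6.90% and 8.02% of all genes tested. Pdk4 also fell by more than 1 (-1.19) but was not called (adjusted p = 0.0536).

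**Figure D1:**
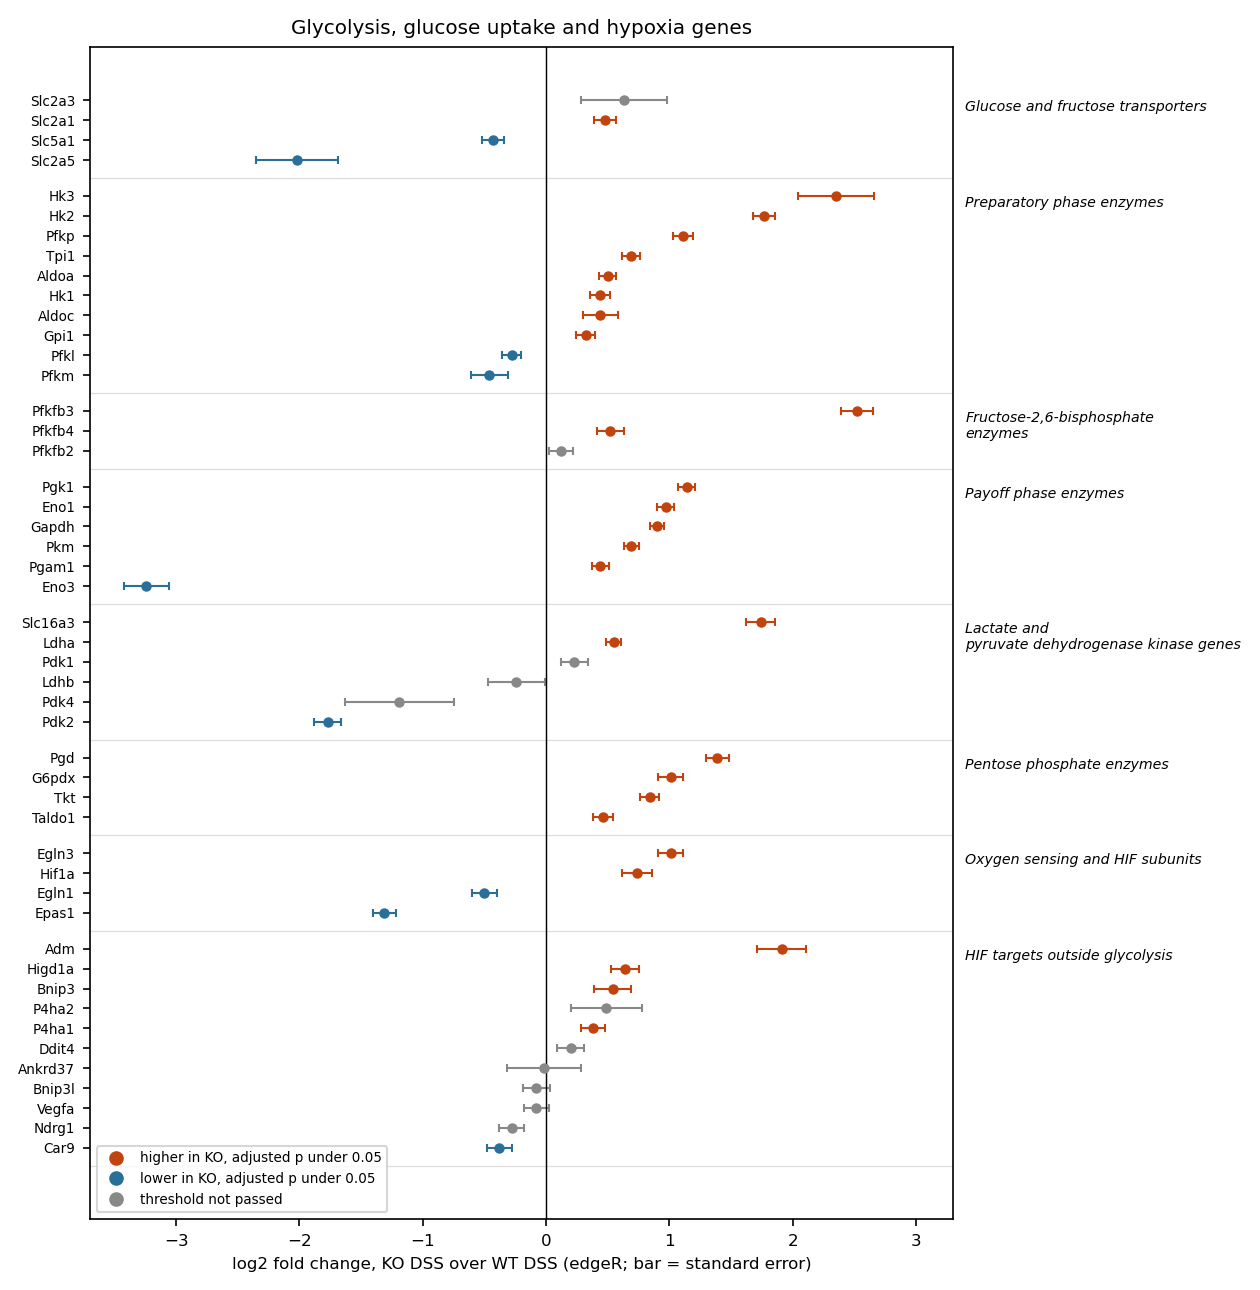
Log2 fold change (knockout over wild type, x axis) with its standard error for the 48 genes, grouped by role, from edgeR on 2 knockout and 2 wild-type libraries. Red points passed the threshold upward, blue points downward and grey points did not pass. The payoff phase and pentose phosphate genes lie to the right of 0 except Eno3 at -3.24, and the HIF targets outside glycolysis spread on both sides of it.

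In level, the 33 pathway genes summed to 9904 and 9764 FPKM in the knockout libraries and to 6517 and 6643 FPKM in the wild-type libraries. They made up 1.90% and 1.85% of all FPKM in knockout and 1.33% in each wild-type library. Normalised counts of the groups did not overlap for 45 of the 48 genes, with 33 above and 12 below in knockout. Of all genes tested, 73.2% did not overlap, 36.8% above and 36.4% below. Levels ran from Slc2a5 and Pdk4, under 1 FPKM in the knockout libraries, to Gapdh, at 2431 FPKM or more there.

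Of the 4 sugar transporters in the set, 1 rose, 2 fell and 1 did not pass. Slc2a1, which encodes the widespread glucose carrier GLUT1, stood at 110.7 and 121 FPKM in knockout and at 86.2 and 92.8 FPKM in wild type. Both knockout libraries lay above both wild-type ones, and Slc2a1 rose (log2 fold change 0.48 ± 0.09 SE, adjusted p = 0.00242). Slc5a1, the sodium-glucose cotransporter SGLT1 of the brush border, stood at 46.1 and 50.1 FPKM in knockout and at 68.2 and 70.7 FPKM in wild type. The groups were again apart, and Slc5a1 fell by 0.43 on the log2 scale (SE 0.09, adjusted p = 0.00381). The fructose carrier gene Slc2a5 fell by 2.02 on the log2 scale from a low level, with 11 and 9 counts in knockout and 42 and 41 in wild type. Slc2a3, which encodes the high-affinity carrier GLUT3 known from neurons and leukocytes, had 27 and 25 counts in knockout and 20 and 14 in wild type and did not pass (log2 fold change 0.63 ± 0.35, adjusted p = 0.176). On quantile normalized FPKM, tested by limma, Slc2a1 lost its call (0.19, adjusted p = 0.114).

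Hexokinase, which traps glucose in the cell as glucose-6-phosphate, showed a change of leading isozyme. Hk2, the inducible hexokinase that binds mitochondria, stood at 160 and 165 FPKM in knockout and at 47.9 and 54.1 FPKM in wild type. That is a log2 fold change of 1.77 ± 0.09 (adjusted p = 1.08e-06), with the lowest knockout value well above the highest wild-type one. Hk1, the constitutive isozyme, rose less (0.44 ± 0.08), from a wild-type level above that of Hk2. Hk2 thus held 58.9% and 60.1% of the summed FPKM of 5 hexokinase genes in knockout and 37.4% and 38.9% in wild type. Hk1 led the family in wild type at 61.0% and 59.3%, and held 37.5% and 37.0% in knockout. The family as a whole summed to 272 and 275 FPKM in knockout and to 128 and 139 FPKM in wild type, a ratio of 2.04. The Hk1 call was lost on quantile normalized FPKM (0.18, adjusted p = 0.098).

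Hk3, a hexokinase known mainly from myeloid cells, was counted at 59 and 57 in knockout and at 9 and 14 in wild type. It rose by 2.35 ± 0.31 on the log2 scale (adjusted p = 0.000359) and stayed under 4 FPKM in every library. Myeloid markers moved the same way. Of 9 macrophage and dendritic cell markers 7 rose and 0 fell, with summed levels of 442 and 485 FPKM in knockout and of 305 and 322 FPKM in wild type. Of 7 neutrophil markers left without Ly6g, whose listing differs between the files, 5 were tested, 4 rose and 0 fell. These summed to 158 and 134 FPKM in knockout and to 7.84 and 11.6 FPKM in wild type, mostly S100a8 and S100a9 in knockout. The other neutrophil markers changed far less. Csf3r and Itgam rose by 1.47 and 1.13 on the log2 scale, at 2.5 FPKM or less in every library. Cxcr2 had overlapping groups and did not pass (0.39 ± 0.31, adjusted p = 0.339). The granule genes Mpo and Elane were not listed in any library. The part of these cells in the Hk3 and Slc2a3 values was not tested.

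Further down the preparatory phase, Gpi1, the isomerase that forms fructose-6-phosphate, rose by 0.32 ± 0.08 on the log2 scale (adjusted p = 0.00978). Its call was lost without wild-type replicate 1 (0.25, adjusted p = 0.118) and in each limma test of FPKM. Phosphofructokinase, which commits fructose-6-phosphate to glycolysis, is built from liver (Pfkl), muscle (Pfkm) and platelet (Pfkp) type subunits. Pfkp was at 122 and 120 FPKM in knockout and at 62.2 and 58.7 FPKM in wild type, and rose by 1.11 ± 0.08 (adjusted p = 8.38e-06). Pfkl was at 57.3 and 59.6 FPKM in knockout and at 74.2 and 77.9 FPKM in wild type, and fell by 0.28 on the log2 scale (adjusted p = 0.0231). Pfkm, much the scarcest subunit at 6.23 to 9.84 FPKM, fell by 0.46 (adjusted p = 0.0292). The leading subunit was therefore Pfkp in knockout, with 65.8% and 64.3% of the family against 42.5% and 40.1% in wild type, and Pfkl in wild type, with 50.8% and 53.2% there and 30.8% and 31.9% in knockout. Both falls were small. The Pfkl and Pfkm calls were each lost when knockout replicate 1, wild-type replicate 1 or wild-type replicate 2 was left out (adjusted p = 0.0713 to 0.141), and the Pfkm call with DESeq2 as well (adjusted p = 0.157).

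Aldoa and Tpi1, the aldolase and the isomerase that yield glyceraldehyde-3-phosphate, rose by 0.50 ± 0.07 and 0.69 ± 0.07 on the log2 scale (adjusted p = 0.000375 and 0.000112). Aldoa stood at 1132 and 1123 FPKM in knockout and at 839 and 876 FPKM in wild type, and Tpi1 at 608 and 613 FPKM in knockout and at 396 and 418 FPKM in wild type. Aldoc, a brain-type aldolase near 10 FPKM, also rose (0.44 ± 0.14, adjusted p = 0.0305), but that call was lost under 7 of the 15 alternatives. They include leaving out knockout replicate 2, wild-type replicate 1 or wild-type replicate 2 (adjusted p = 0.0538 to 0.177).

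The PFKFB enzymes make and break fructose-2,6-bisphosphate, the strongest known activator of phosphofructokinase, and of these Pfkfb3 stood out. Pfkfb3, whose product is mainly a kinase, was at 14.3 and 16.0 FPKM in knockout and at 2.81 and 2.99 FPKM in wild type. Its log2 fold change of 2.52 ± 0.13 (adjusted p = 1.5e-06) was the highest of the 48 genes in this fit. Pfkfb4 rose by 0.52 ± 0.11 (adjusted p = 0.00507), with 15.7 and 15.3 FPKM in knockout and 11.0 and 12.1 FPKM in wild type. Pfkfb2, at 12.5 to 13.5 FPKM in all libraries, did not pass (0.12 ± 0.10, adjusted p = 0.332). Pfkfb3 held 31.9% and 36.1% of the summed FPKM of 4 PFKFB genes in knockout and 10.1% and 10.5% in wild type.

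**Figure D2:**
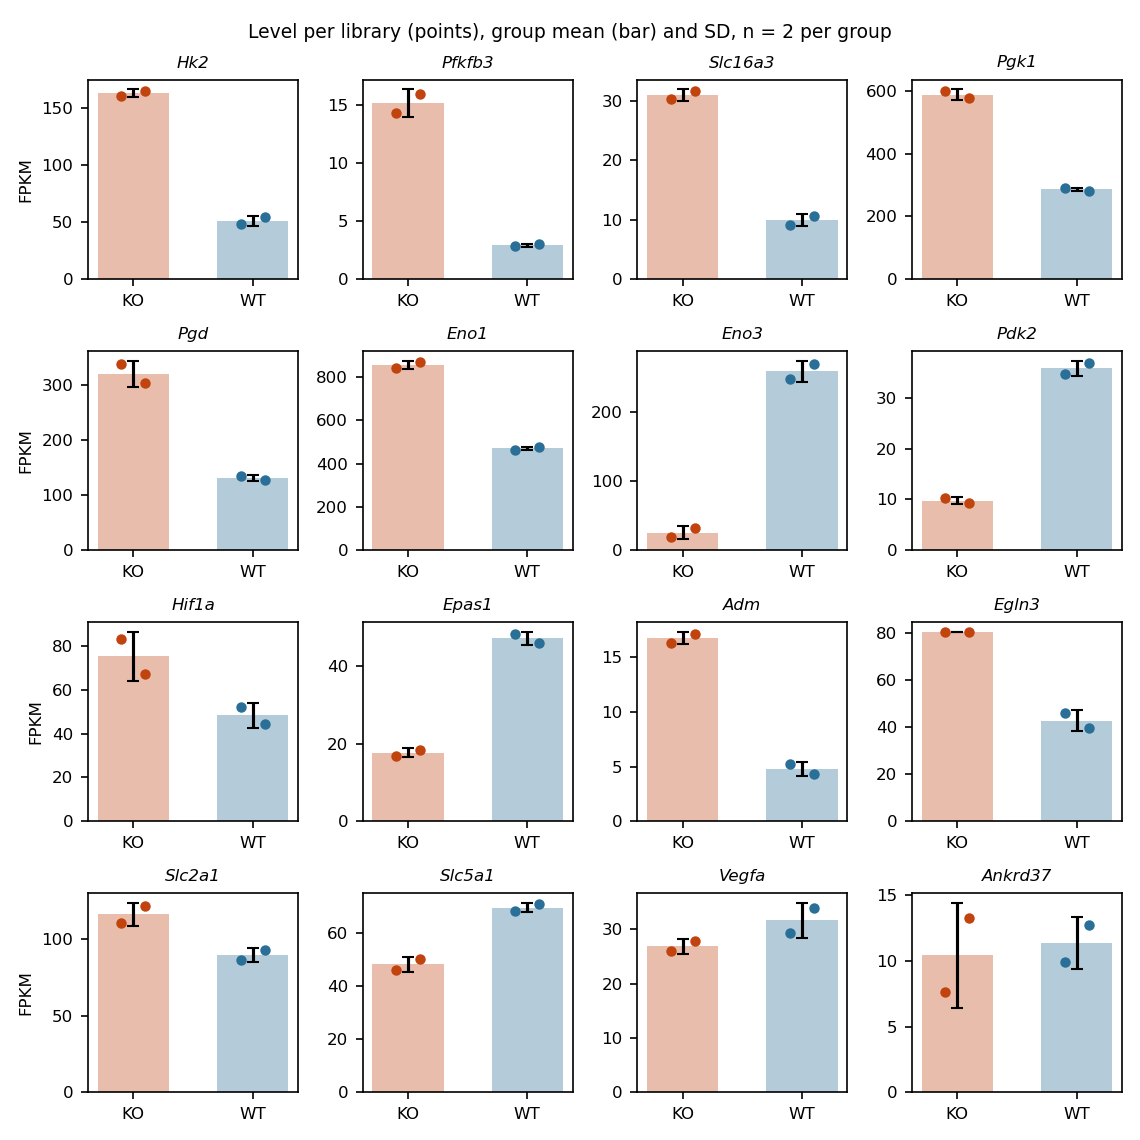
FPKM (y axis, from 0, own scale per panel) of 16 of the genes in each library (points), with group means (bars) and SD for 2 knockout (left) and 2 wild-type (right) libraries. Hk2 and Pfkfb3 are well apart upward and Eno3, Pdk2 and Epas1 downward in knockout, while Ankrd37 overlaps, at 7.6 and 13.2 FPKM in knockout and 9.92 and 12.7 FPKM in wild type.

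Of the 6 genes of the payoff phase, which earns ATP and NADH, 5 rose and 1 fell. Gapdh, the most abundant of the 48 transcripts in FPKM, was at 2551 and 2431 FPKM in knockout and at 1416 and 1410 FPKM in wild type, and rose by 0.90 ± 0.06 (adjusted p = 6.2e-06). Pgk1, the kinase that makes the pathway's first ATP, was at 599.6 and 576 FPKM in knockout and at 289.8 and 282 FPKM in wild type, and rose by 1.14 ± 0.07 (adjusted p = 5.38e-06). Knockout values of both genes lay far above the wild-type ones. Pgam1, the mutase, rose by 0.44 ± 0.07, and its call was lost on quantile normalized FPKM (0.15, adjusted p = 0.144). Pkm, the pyruvate kinase of most tissues outside the liver, rose by 0.69 ± 0.06 (adjusted p = 3.37e-05), with 1059 and 1085 FPKM in knockout and 701 and 722 FPKM in wild type. Values per gene do not separate the Pkm splice forms M1 and M2.

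Enolase, which forms phosphoenolpyruvate, showed the widest divergence between isozymes. Eno3, the β-enolase known from skeletal muscle, was at 19.3 and 31.7 FPKM in knockout and at 248 and 269.5 FPKM in wild type. No other member fell as far (log2 fold change -3.24 ± 0.18, adjusted p = 2.4e-06), and it fell by 2.95 to 3.59 with each library left out in turn. Eno1, the α-enolase of most tissues, was at 843 and 870.1 FPKM in knockout and at 465 and 475 FPKM in wild type, and rose by 0.97 ± 0.07 (adjusted p = 9.36e-06). Eno3 thus made up 2.24% and 3.51% of enolase FPKM in knockout and 34.7% and 36.1% in wild type. Over all 4 enolase genes, the family summed to 864 and 903 FPKM in knockout and to 715.5 and 747 FPKM in wild type, a ratio of 1.21, while Eno1 alone had a ratio of 1.82. Smooth muscle markers fell alongside: Des had 154 and 198 FPKM in knockout and 346 and 356 FPKM in wild type, and the 10 fibroblast and smooth muscle markers summed to 1051 and 1347 FPKM in knockout and to 2335 and 2515 FPKM in wild type, a ratio of 0.494 beside 0.0986 for Eno3. Their part in the Eno3 value was not tested.

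Summed over isozymes, every reaction of glycolysis and lactate dehydrogenase had a knockout-to-wild-type FPKM ratio above 1, beside a ratio of 1.06 for the summed FPKM of all genes tested. The ratios were 2.05 at phosphoglycerate kinase, 2.04 at hexokinase and 1.76 at glyceraldehyde-3-phosphate dehydrogenase. They were 1.17 at glucose-6-phosphate isomerase, 1.21 at enolase, 1.26 at phosphoglycerate mutase and 1.27 at both phosphofructokinase and aldolase. Triose phosphate isomerase and pyruvate kinase stood at 1.5 and lactate dehydrogenase at 1.36. These sums carry no test.

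**Figure D3:**
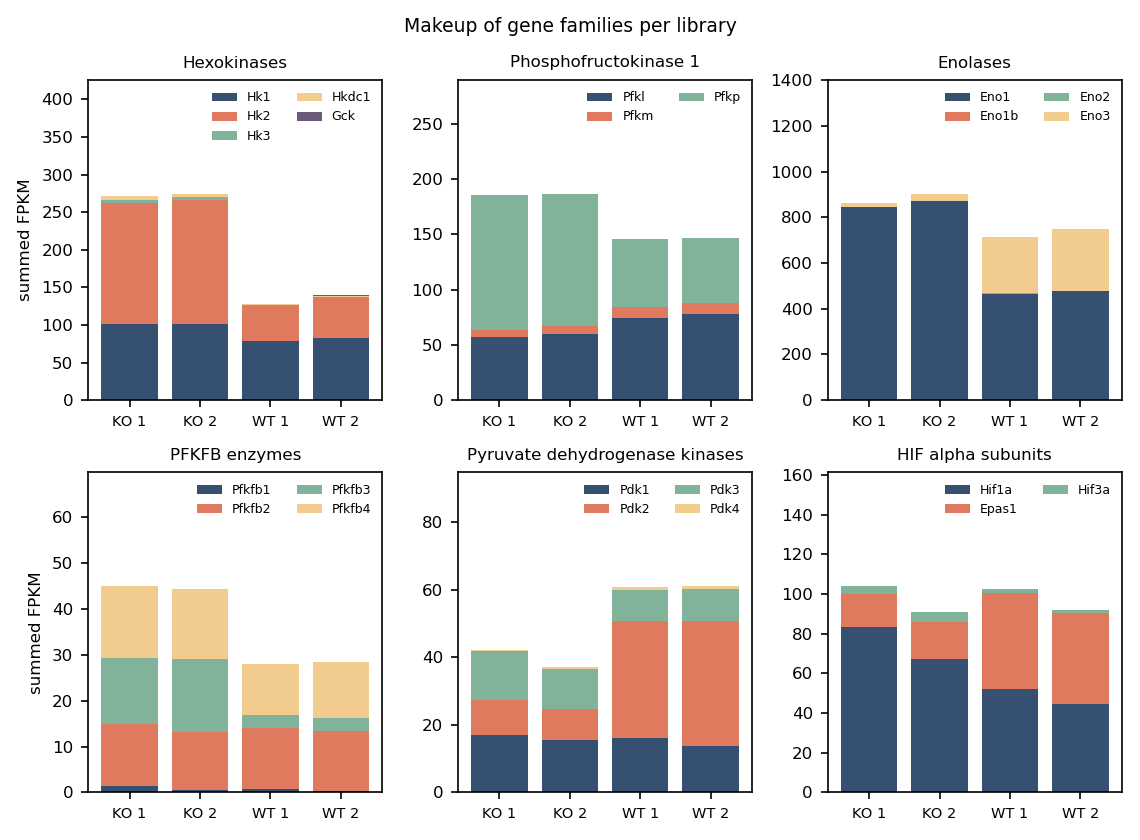
Summed FPKM (y axis, from 0) of 6 gene families in each library, knockout at left and wild type at right, with colours for the genes of a family. Hk2 and Pfkp take the larger part of the hexokinase and phosphofructokinase bars in knockout, Eno3 is 35.4% of enolase in wild type and 2.87% in knockout on average, and the HIF alpha bars have like heights with more Hif1a and less Epas1 in knockout.

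Of the 6 genes at the pyruvate branch point, 2 rose, 1 fell and 3 did not pass. Ldha, the lactate dehydrogenase subunit that favours pyruvate reduction, was at 1097 and 1064 FPKM in knockout and at 795 and 786 FPKM in wild type (log2 fold change 0.55 ± 0.06, adjusted p = 0.000188). Ldhb, the heart-type subunit, stayed between 6.14 and 9.5 FPKM and did not pass (-0.24 ± 0.23, adjusted p = 0.441). Slc16a3, which encodes the lactate exporter MCT4, was at 30.2 and 31.6 FPKM in knockout and at 9.15 and 10.7 FPKM in wild type, and rose by 1.74 ± 0.12 (adjusted p = 7.14e-06). Ldha outweighed Ldhb in every library, with at least 98.46% of lactate dehydrogenase FPKM.

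Pyruvate dehydrogenase kinases inhibit the mitochondrial complex that turns pyruvate into acetyl-CoA. Of the 3 kinase genes in the set, 1 fell and 2 did not pass. Pdk2, the kinase gene with the highest level in wild type, was at 10.3 and 9.23 FPKM in knockout and at 34.8 and 37.0 FPKM in wild type, and fell by 1.77 on the log2 scale (SE 0.11, adjusted p = 4.98e-06). The textbook HIF target Pdk1 was at 17.0 and 15.6 FPKM in knockout and at 16.0 and 13.8 FPKM in wild type and did not pass (0.23 ± 0.11, adjusted p = 0.114). Pdk4, a kinase known from fasting, was under 1.1 FPKM in every library and did not pass (-1.19 ± 0.44, adjusted p = 0.0536), although 5 of the 15 alternatives called it lower. The remaining kinase gene, Pdk3, which is outside the set, rose (log2 fold change 0.61 ± 0.16, adjusted p = 0.014), a call lost without knockout replicate 1 or wild-type replicate 1 (highest adjusted p = 0.0795). Together the 4 kinase genes had Pdk2 at 24.4% and 24.9% of their FPKM in knockout and at 57.2% and 60.5% in wild type.

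All 4 pentose phosphate genes rose, each with both knockout libraries above both wild-type ones. Of all genes tested, 23.0% were called higher, and 36.8% had both knockout libraries above both wild-type ones. The oxidative enzymes make NADPH. G6pdx, the first of them, was at 61.4 and 55.3 FPKM in knockout and at 31.2 and 31.1 FPKM in wild type (log2 fold change 1.01 ± 0.10, adjusted p = 6.14e-05). Pgd, the next NADPH-forming dehydrogenase, was at 336 and 302 FPKM in knockout and at 135 and 128 FPKM in wild type (1.39 ± 0.09, adjusted p = 4.17e-06). The carbon-shuffling enzymes, which link the pathway back to glycolysis, changed less. Tkt rose by 0.84 ± 0.08 (adjusted p = 5.57e-05) and Taldo1 by 0.46 ± 0.08 (adjusted p = 0.00164), and the Taldo1 call was lost on quantile normalized FPKM (0.16, adjusted p = 0.115).

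The HIF alpha subunits went opposite ways. Hif1a, which encodes HIF-1α, was at 83.3 and 67.4 FPKM in knockout and at 52.3 and 44.4 FPKM in wild type, and rose by 0.74 ± 0.12 (adjusted p = 0.00121). The knockout libraries differed among themselves by more than the wild-type ones, without overlap between groups. Epas1, which encodes HIF-2α, was at 16.8 and 18.4 FPKM in knockout and at 48.3 and 45.9 FPKM in wild type, and fell by 1.31 on the log2 scale (SE 0.09, adjusted p = 9.36e-06). Hif1a made up 79.95% and 73.9% of the FPKM of the 3 alpha subunit genes in knockout and 51.1% and 48.2% in wild type. Endothelial cells are known for high Epas1, and 3 of 5 endothelial markers fell and 0 rose, with sums of 11.5 and 14.4 FPKM in knockout and of 20.96 and 18.7 FPKM in wild type. The part of endothelial cells in the Epas1 value was not tested. The HIF alpha proteins are controlled mainly by degradation, which RNA does not show.

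The prolyl hydroxylases that mark HIF alpha for degradation were also split. Egln3, which encodes PHD3 and is itself a HIF target, was at 80.4 and 80.7 FPKM in knockout and at 46.0 and 39.6 FPKM in wild type, and rose by 1.01 ± 0.10 (adjusted p = 6.85e-05). Egln1, which encodes PHD2, the main oxygen sensor, was at 17.2 and 16.6 FPKM in knockout and at 27.3 and 24.1 FPKM in wild type, and fell by 0.50 on the log2 scale (SE 0.10, adjusted p = 0.00386).

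HIF targets outside glycolysis did not move as 1 group: of 11, 4 rose (36.4%), 1 fell (9.09%) and 6 did not pass. Of all genes tested, 23.0% rose and 20.8% fell. Whether these shares differ was not tested, and with 11 genes they are coarse. Adm, which encodes the vessel-active peptide adrenomedullin, was at 16.3 and 17.1 FPKM in knockout and at 5.22 and 4.31 FPKM in wild type, and rose by 1.91 ± 0.20 (adjusted p = 9.24e-05). Higd1a, a mitochondrial protein gene of the hypoxia response, was at 64.1 and 68.1 FPKM in knockout and at 42.0 and 49.2 FPKM in wild type, and rose by 0.64 ± 0.11 (adjusted p = 0.00137). Both genes were higher in each knockout library than in either wild-type one. Bnip3, a mitophagy receptor gene, rose by 0.54 ± 0.15 (adjusted p = 0.0186) and P4ha1, a collagen prolyl hydroxylase subunit, by 0.38 ± 0.10 (adjusted p = 0.0152). These smaller rises were less firm. Bnip3 lost its call in each limma test of FPKM (adjusted p = 0.0525 to 0.0566). It also lost it without knockout replicate 1 or wild-type replicate 2 (log2 fold change 0.42 and 0.38). P4ha1 lost its call with library totals alone (adjusted p = 0.0524) and with DESeq2 (0.102). The same held with limma on log2(FPKM + 1) or log2(FPKM + 0.1) (adjusted p = 0.103 and 0.0988). Without wild-type replicate 1 or 2 the P4ha1 call was lost as well (log2 fold change 0.41 and 0.34).

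Several textbook hypoxia reporters did not pass upward. Car9, the carbonic anhydrase often used as a mark of HIF-1 activity, was at 26.3 and 25.9 FPKM in knockout and at 37.9 and 35.1 FPKM in wild type. It fell by 0.38 on the log2 scale (SE 0.10, adjusted p = 0.0121), a call lost without wild-type replicate 1 (adjusted p = 0.0964) and with DESeq2 (0.0706). Vegfa, the vascular growth factor gene, was at 25.9 and 27.8 FPKM in knockout and at 29.4 and 33.9 FPKM in wild type (log2 fold change -0.08 ± 0.10, adjusted p = 0.574). Ankrd37, an ankyrin repeat gene known for strong induction by HIF-1, had overlapping groups and a fold change of -0.02 ± 0.30 (adjusted p = 0.966). The mitophagy receptor gene Bnip3l (-0.08 ± 0.11), the stress gene Ndrg1 (-0.28 ± 0.10, adjusted p = 0.0568), the mTORC1 inhibitor gene Ddit4 (0.20 ± 0.11) and the second collagen hydroxylase subunit P4ha2 (0.49 ± 0.29) did not pass either. Ndrg1 was called lower under 9 of the 15 alternatives, and Vegfa, Bnip3l and Ankrd37 changed sign when 1 library was left out. A p that misses the threshold does not show that these levels were equal.

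The promoters of these genes were searched for the core letters that HIF binds, ACGTG or GCGTG on either strand, in the 250 bases before each RefSeq start (build GRCm38.p6). Of the 48 genes, 44 have at least 1 such window in the table, and Slc2a3, Epas1, Bnip3l and Ndrg1 have none. The sequences of 6 genes follow, as examples of members that rose (Hk2, Pgk1, Adm), did not pass (Ankrd37) or fell (Car9, Eno3). Each reads 5′ to 3′ on the strand of its gene and ends at the base before the start, and capitals mark matches to the core letters or to their reverse complements.
Hk2: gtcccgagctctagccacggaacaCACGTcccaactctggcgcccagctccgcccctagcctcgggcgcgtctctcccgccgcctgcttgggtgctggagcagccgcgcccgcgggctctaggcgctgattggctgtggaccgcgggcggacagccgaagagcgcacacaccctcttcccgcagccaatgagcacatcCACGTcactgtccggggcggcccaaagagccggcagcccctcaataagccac
Pgk1: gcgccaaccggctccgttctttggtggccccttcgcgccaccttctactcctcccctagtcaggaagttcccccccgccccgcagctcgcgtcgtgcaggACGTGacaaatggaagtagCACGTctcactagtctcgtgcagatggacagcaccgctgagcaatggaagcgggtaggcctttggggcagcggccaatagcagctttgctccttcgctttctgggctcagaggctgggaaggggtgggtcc
Adm: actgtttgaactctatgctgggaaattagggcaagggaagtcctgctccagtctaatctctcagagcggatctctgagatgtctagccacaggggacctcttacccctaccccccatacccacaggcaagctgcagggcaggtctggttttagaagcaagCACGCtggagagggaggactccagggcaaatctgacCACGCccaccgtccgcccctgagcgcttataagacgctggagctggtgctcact
Ankrd37: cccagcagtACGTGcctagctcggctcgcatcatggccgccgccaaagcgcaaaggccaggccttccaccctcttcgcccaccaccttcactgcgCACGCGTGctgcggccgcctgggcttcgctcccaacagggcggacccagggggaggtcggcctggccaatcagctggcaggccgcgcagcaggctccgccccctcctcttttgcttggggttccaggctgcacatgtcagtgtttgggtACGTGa
Car9: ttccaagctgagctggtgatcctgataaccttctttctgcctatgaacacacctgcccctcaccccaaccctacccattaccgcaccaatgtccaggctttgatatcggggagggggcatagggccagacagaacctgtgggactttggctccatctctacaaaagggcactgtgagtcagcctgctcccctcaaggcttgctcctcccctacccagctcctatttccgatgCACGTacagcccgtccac
Eno3: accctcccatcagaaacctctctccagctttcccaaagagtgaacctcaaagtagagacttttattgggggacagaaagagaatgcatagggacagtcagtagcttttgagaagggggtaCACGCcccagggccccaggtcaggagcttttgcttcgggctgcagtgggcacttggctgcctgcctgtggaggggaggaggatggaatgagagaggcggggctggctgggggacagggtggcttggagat
The windows lie at chr6:82774455-82774704 (- strand), chrX:106186850-106187099 (+ strand), chr7:110627407-110627656 (+ strand), chr8:45999851-46000100 (- strand), chr4:43506776-43507025 (+ strand) and chr11:70656926-70657175 (+ strand).

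Matches were common among genes of each direction. They were found for 26 of 28 risen genes, 7 of 8 fallen genes and 8 of 8 genes that did not pass, 41 of 44 in all (93.2%). Of all genes tested with a window in the table, 59.8% held a match, and 41.5% of all genes with a RefSeq window did. The median GC content was 60.2% in the members' windows, 59.2% in those of genes tested and 52.4% in all windows, and a gene with several windows counts if any holds a match. The stricter letters ACGTG were found for 10 of 12 oxygen sensing and HIF genes and 14 of 32 pathway genes, against 24.5% of genes tested. In the sequences above, Hk2, Pgk1 and Adm each hold 2 matches and Ankrd37 holds 4, the nearest 6 bases before its start, while Car9 and Eno3 hold 1 each. The 6-letter E-box CACGTG, which contains ACGTG and is bound by MYC and related factors, was found for 8 of 44 members, against 9.64% of genes tested. A match is a description of letters and does not show binding.

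**Figure D4:**
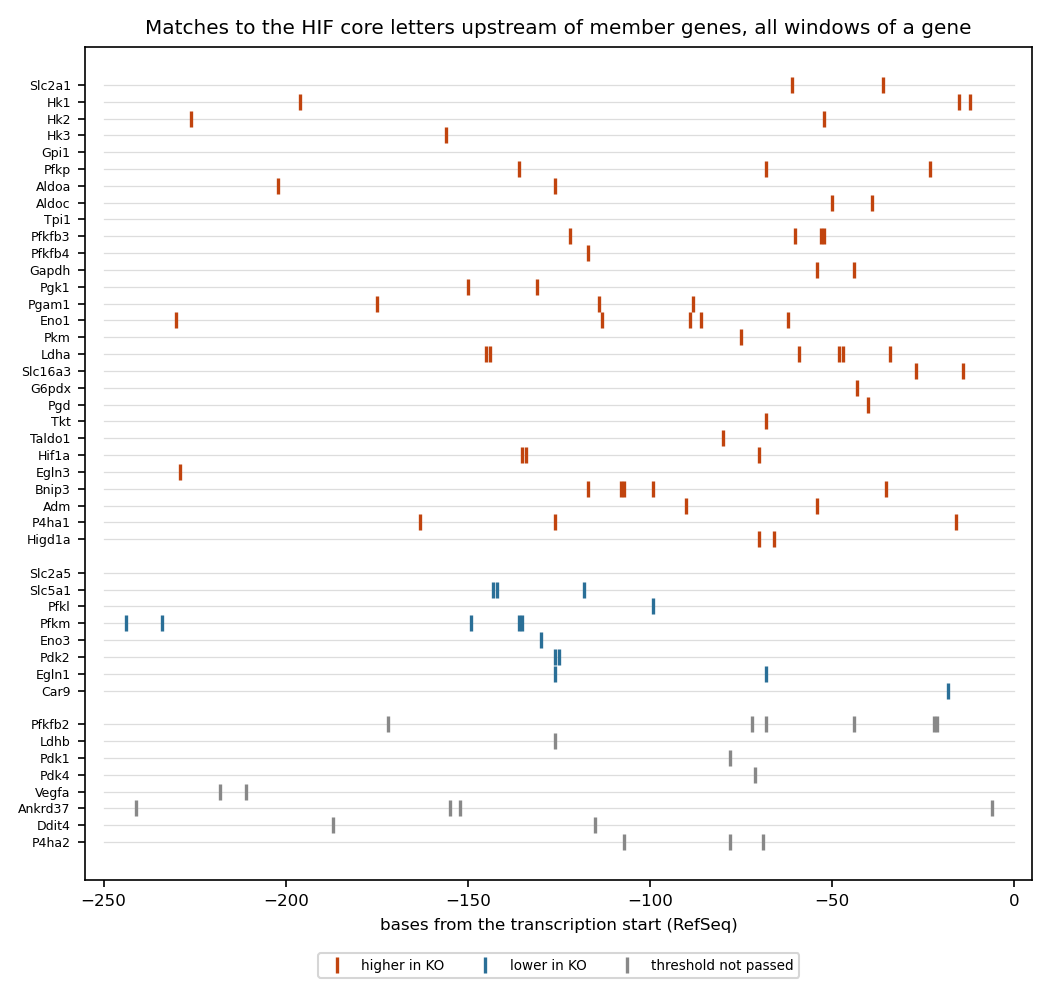
Positions of matches to ACGTG or GCGTG on either strand (ticks), in bases from the transcription start (x axis), for the 44 genes with a RefSeq promoter window. Genes are ordered by whether they were higher, lower or did not pass in knockout, several windows of a gene share a line, and matches appear in all 3 sets.

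Other genes of the same pathways, from 10 further lists, were divided: of 115 tested, 40 (34.8%) rose and 32 (27.8%) fell. Of all genes tested, 23.0% rose and 20.8% fell, and those shares stand beside the counts of each further list below. Of 6 gluconeogenesis genes, whose enzymes run glycolysis backwards, 0 rose and 4 fell. Pck1, the enzyme that draws oxaloacetate into glucose synthesis, was at 7.61 and 7.78 FPKM in knockout and at 98.6 and 110.5 FPKM in wild type (log2 fold change -3.66 ± 0.11, adjusted p = 7.41e-08). Pck2, its mitochondrial counterpart, also fell (-0.59 ± 0.12, adjusted p = 0.00463). Among further glycolysis isozymes and regulators, 4 rose and 1 fell of 10. Hkdc1, a hexokinase domain gene, rose by 3.61 ± 0.36, with 111 and 84 counts in knockout and 11 and 5 in wild type (3.13 to 4.29 with a library left out). Bpgm, which makes 2,3-bisphosphoglycerate, rose by 1.19 ± 0.10.

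Of 14 further genes of lactate and pyruvate handling, 7 rose and 2 fell. The pyruvate dehydrogenase subunit genes Pdhb and Pdhx rose by 0.86 and 0.88 on the log2 scale. The phosphatase gene Pdp2, which opposes the PDK kinases, fell by 2.19. Slc16a1, which encodes MCT1, the carrier for butyrate and lactate, was at 49.1 and 40.0 FPKM in knockout and at 98.3 and 78.8 FPKM in wild type, and fell by 0.89 (adjusted p = 0.000644). The monocarboxylate carriers Slc16a3 and Slc16a1 thus changed in opposite directions. Of 6 further pentose phosphate genes 3 rose and 0 fell, led by H6pd, the endoplasmic reticulum counterpart of G6pdx (1.72 ± 0.12). Of 9 fructose and galactose genes 3 rose and 1 fell. Glycogen genes were mixed, with 4 higher and 5 lower of 11, as were further sugar transporters, with 2 higher and 2 lower of 9. Slc5a9, a sodium-coupled mannose and glucose carrier gene, rose by 2.37 ± 0.13.

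The further HIF-related genes also went both ways. Of 7 other oxygen sensing genes 2 rose and 2 fell, with Hif3a, which encodes the third alpha subunit, at 1.51. Of 32 other genes described as HIF targets 14 rose and 9 fell. Ak4, a mitochondrial adenylate kinase gene, was counted at 996 and 912 in knockout and at 52 in each wild-type library, a log2 fold change of 4.22 ± 0.12 (adjusted p = 5.53e-08). Ero1l, an endoplasmic reticulum oxidase gene listed as Ero1a in RefSeq, rose by 1.77. Edn1, which encodes endothelin 1, was counted at 9 and 18 in knockout and at 223 and 246 in wild type and fell by 4.08 (log2 fold change -4.65 to -3.68 with a library left out). Selenbp1, a selenium-binding protein gene, fell by 2.20.

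Among 11 sugar-responsive and MYC network regulators, 1 rose and 6 fell. Txnip, an arrestin that holds back glucose uptake, was at 132 and 128 FPKM in knockout and at 454 and 439.5 FPKM in wild type, and fell by 1.68 (SE 0.07, adjusted p = 6.8e-07). Its relative Arrdc4 did not pass (-0.24 ± 0.09). Mlx, a shared partner of the sugar sensors, rose by 0.66 ± 0.09, while the sensor gene Mlxip fell by 0.86. Myc itself did not pass (0.15 ± 0.22, adjusted p = 0.633). Ppargc1a, a coactivator gene of mitochondrial biogenesis, fell by 1.29.

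How reads were assigned limits some of these values. Counts were whole in every library for 32 of the 48 genes. Gapdh, Aldoa, Eno1, Ldha and Gpi1 were among the other 16, and genes with near-identical copies, such as Eno1 and its intronless copy Eno1b, can share reads. The kit used does not mark strand. In GENCODE M21, 14 of the 48 genes have an exon that overlaps an exon on the opposite strand. Examples are Hif1a with Gm15283, Hk3 with Unc5a and Pfkp with Pitrm1. Reads from the overlapping parts of such pairs cannot be told apart by strand. Hif1a, Vegfa, Ldhb and P4ha1 have transcript lists that differ between the replicate 1 and replicate 2 files.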

How the data were processed

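RNA-seq of 4 libraries was analysed, 2 knockout and 2 wild type. Trizol RNA was made into Illumina TruSeq libraries, per the labels' protocols. The authors deposited an expected count, an FPKM value and a length (unit other, used only to describe FPKM) for each gene and library, per the file headers. These deposited estimated counts can be fractional. Bowtie2, BWA and the human build hg19 appear in the submitters' processing notes, without a role, while the organism is mouse. The sources used here do not name the tool that quantified the genes.

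Of 18872 identifiers, 18820 matched the RefSeq table (GRCm38.p6), which gave symbols and promoter windows. A gene absent from a file got the value 0. The replicate 1 and replicate 2 files use different annotations: 344 genes were listed only in both replicate 1 files and 165 only in both replicate 2 files. Expected counts were rounded and analysed by edgeR 4.0.16 under R 4.3.3 (filterByExpr, TMM, glmQLFit, glmQLFTest, no block, two-sided). Standard errors are the log2 change over the root of the F statistic. The biological coefficient of variation was 12.9%. Alternatives used DESeq2 1.42.0 and limma 3.58.1 with trend on log2(FPKM + 1) or log2(FPKM + 0.1), a log2 scale that understates changes of low genes. Folds from edgeR use TMM factors, while ratios of the deposited FPKM do not. The fits were also run on simulated data with far fewer changed genes than were called here. That run does not show how they behave when so many genes change.

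The members and gene lists were chosen with earlier results of these data known. All members are accounted for, and other genes of the pathway are named by smallest p, up to 3 per list and direction, except 2 genes that are not reported here. Myc, Arrdc4 and Pdk3 were named after their values were seen.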

Additional observations from a re-analysis of the deposited data

How the results depend on the processing

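The 15 alternatives changed the scaling, the filter, the test, the pairing, the genes kept or the libraries. Of 711 fold changes of the 48 genes under them, 654 kept their direction and their side of the threshold, 36 lost a call, 15 gained one and 6 changed sign, and 30 genes never changed. The sign changes were of genes that did not pass: Pfkfb2 at -0.02 with limma on either pseudocount, Vegfa at 0.03 and Ankrd37 at 0.17 without wild-type replicate 2, Bnip3l at 0.03 without knockout replicate 2 and Ankrd37 at 0.32 without knockout replicate 1. With a library left out, Vegfa ranged from -0.19 to 0.03, Bnip3l from -0.19 to 0.03 and Ankrd37 from -0.47 to 0.32. The number of pathway genes higher ranged from 17 (quantile normalized FPKM) to 23 (replicate block), and 20 to 22 with a library left out. Lower ones numbered 4 to 7. With the replicate block, 23 rose and 7 fell, it ended no call of a member, and Pdk1 passed (adjusted p = 0.0203). Same-numbered libraries deviated together (Pearson r = 0.33 across 13070 genes), but with 2 pairs the labels do not establish pairing. Library totals alone shifted the median of all genes to -0.103, against -0.002 with TMM. The pathway median was then 0.396, and was 0.37 and 0.395 with limma on pseudocounts of 1 and 0.1 and 0.376 on quantile normalized FPKM. The median of the oxygen sensing and HIF genes was 0.101 with library totals alone, 0.02 on genes with a mean FPKM of at least 5, 0.093 and 0.095 with limma, 0.043 on quantile normalized FPKM, 0.086 on genes with the same transcripts, and 0.086 to 0.318 with a library left out. Shares of expected counts, which favour long transcripts, differed from shares of FPKM: Hk2 66.5% in knockout and 45.3% in wild type, Pfkp 67.3% and 43.8%, Aldoa 96.7% and 92.6%, Ldha 99.35% and 98.92%, Pdk2 16.4% and 45.0%, Slc2a1 79.9% and 66.5%, and Eno3 31.7% in wild type, with knockout first in each pair. The cause of these changes was not tested. With 2 libraries per group, genes of few counts such as Pdk4, Slc2a3 and Ankrd37 are the least precise.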
